A study of Mus musculus with 2 samples.

Results

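DNA replication and S phase genes encode the proteins that license replication origins, build and run the replication fork, supply deoxynucleotides and drive entry into S phase. The set holds 40 genes, chosen by name and not by their values, and found on the array by the gene name of each probe. All 40 were on the array, with 77 of its 56572 probes and among its 37058 named genes and transcripts. They fall into 15 origin licensing genes, 19 fork genes, 3 nucleotide supply genes and 3 genes of cyclin E and E2F. Gene expression was measured in an established line of mouse embryonic stem cells that carries a green fluorescent reporter in the Sox1 gene. Cells of both groups grew in 15% serum with LIF on feeder cells, which were taken off before RNA was collected. One group carried a control hairpin (shCtrl, whose title calls it WT) and the other a hairpin that targets LincU, a long noncoding RNA (shLincU). Each group was 1 single-colour array of Cy3-labelled RNA, so there is no replicate check, no p-value, and every direction rests on the array labels. Whether the cells were single clones or pools was not given in the sources used here. By its title the study asks how LincU keeps naive pluripotency by restricting ERK activity.

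In every eukaryotic cell the origin recognition complex (ORC) marks origins. In G1, Cdc6 and Cdt1 load the MCM2-7 helicase there, and geminin blocks Cdt1 later in the cycle. Cdc45, the GINS complex and Mcm10 turn the loaded ring into a moving helicase, and polymerases, primase, the PCNA clamp and its loader copy the strands behind it. Cyclin E with Cdk2 and the E2F transcription factors switch these genes on at the G1/S boundary in somatic cells. Mouse embryonic stem cells have a short G1 and spend much of the cycle in S phase, and cyclin E is known to oscillate little in them.

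A sequence feature that the gene list did not use is the E2F site, the element through which E2F factors bind G1/S promoters. The letters TTTGGCGC, TTTCCCGC, TTTGGCGG and TTTCCCGG were searched on both strands of RefSeq promoters (build GRCm38.p6), each from 250 bases before to 50 bases after a gene's start. Promoters were given for 31 of the 40 genes, and 13 of these 31 (41.9%) held such letters, against 3.79% of the 27025 genes with a promoter. By group these were 8 of 13 origin licensing genes and 5 of 13 fork genes, and 0 of 3 nucleotide supply genes and 0 of 2 genes of cyclin E and E2F. A match describes letters, not binding, and the promoters compared were not matched for base composition. In 7 of the 13 genes every match lay wholly before the start. Their 60 bases around it are shown on the gene's strand, 5′ to 3′, with the match in capitals. These genes were printed because all their matched letters lie upstream of the start.
Mcm6: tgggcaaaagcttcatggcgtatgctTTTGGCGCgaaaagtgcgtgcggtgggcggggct
Orc3: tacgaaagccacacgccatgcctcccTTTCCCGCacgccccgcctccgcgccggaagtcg
Mcm7: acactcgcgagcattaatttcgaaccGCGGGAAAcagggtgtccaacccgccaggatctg
Mcm5: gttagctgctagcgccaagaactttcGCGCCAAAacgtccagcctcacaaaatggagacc
Gins3: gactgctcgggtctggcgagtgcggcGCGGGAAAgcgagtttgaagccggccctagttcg
Cdc6: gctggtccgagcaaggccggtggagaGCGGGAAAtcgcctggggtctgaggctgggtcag
Pola1: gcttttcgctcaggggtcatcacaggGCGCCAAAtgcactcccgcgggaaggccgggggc

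These stretches lie at chr1:128359782-128359841 (Mcm6, minus strand), chr4:34614950-34615009 (Orc3, minus), chr5:138172015-138172074 (Mcm7, minus), chr8:75109334-75109393 (Mcm5, plus), chr8:95633492-95633551 (Gins3, plus), chr11:98907987-98908046 (Cdc6, plus) and chrX:93632260-93632319 (Pola1, minus). The match began between 41 bases (Orc3, Gins3) and 165 bases (Mcm7) before the start. GCGGGAAA and GCGCCAAA are TTTCCCGC and TTTGGCGC read on the other strand. The 13 genes with these letters had expression differences between the arrays from -0.35 to 0.37, with a median of -0.050, and the 18 genes without them from -0.38 to 0.26, with a median of 0.012. The ranges overlapped over most of their length. Mcm6 holds the same letters again 47 bases before its start, beyond the stretch shown.

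A probe counted as measured when the scanner software marked it as well above background on both arrays. Of the 77 probes of the set 74 (96.1%) were measured, against 56.4% of all probes, and no probe of the set was saturated or marked as an outlier. All 40 genes had at least 1 measured probe, 17 of them exactly 1. Levels are log2 of the background-corrected intensity relative to the 75th percentile of the same array, which was 626 intensity units for shCtrl and 420 for shLincU. A difference is the level in shLincU minus that in shCtrl, averaged over a gene's measured probes. The error beside it is the one the scanner software assigns; it mostly reflects a preset proportional error of a spot and is not a spread between cultures. LincU was not analysed here, since 0 probes carried its name, so the knockdown was not checked.

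The embryonic stem cell markers were present as labelled: all 8 were well above background on both arrays, and their summed signal, in units of the 75th percentile, was 736 in shCtrl and 838 in shLincU. Their differences ran from -0.13 for Esrrb to 0.41 for Lin28a. Nanog was at 0.27 with probes at -0.26 and 0.79. Dppa5a was by far the brightest, at levels of 9.19 in shCtrl and 9.42 in shLincU (0.23). The summed signal and its rise therefore rested mostly on Dppa5a, which was at -0.13 with quantile normalization and -0.21 in the deposited value table. Pou5f1, Sox2, Zfp42 and Tdgf1 were at -0.025, 0.00032, -0.011 and 0.014. The fibroblast feeder markers did differ. Of 10 genes, 9 were measured on both arrays, and 7 of these were at least 1.5-fold lower in shLincU, where 4.85% of all measured genes were. The matrix gene Dcn was at -2.41, and at -1.41 with normexp background correction. Postn, on 1 dim probe, was at -0.91 but at -0.15 with that correction. Col1a2, at -1.20, rested on 1 of its 4 probes and was at -0.24 without the background filter. The summed signal of the 10-gene list was 12.7 in shCtrl and 5.05 in shLincU. Unlike the differences, it took every probe of a gene, also those not well above background. Col1a1 and Col3a1 went the other way, at 0.45 and 0.64, and Lum was not well above background in shCtrl. Of the 9 early differentiation markers, 3 of the 8 measured were at least 1.5-fold higher, where 4.78% of all measured genes were. These were T, Cdx2 and Gata4, on 1 measured probe each, and that of Gata4 was dim (69.5 and 82 units). Gata6, Sox17, Sox1 and Pax6 lay between -0.022 and 0.14. Eomes was at 0.24 with probes at -0.88 and 1.37. The summed signal of the list, again over measured and unmeasured probes, was 1.49 in shCtrl and 2.48 in shLincU. The mitosis genes Mki67, Ccnb1, Cdk1, Bub1, Aurka, Plk1 and Cdc20 all lay within 0.25 of 0, from -0.25 for Bub1 to 0.20 for Ccnb1. The part of feeder RNA or of differentiated cells in the values below was not tested. In bulk RNA, fewer cells of a type and less RNA per cell cannot be told apart.

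Replication genes differed little between shLincU and shCtrl. Their median difference was -0.029, and 34 of the 40 (85.0%) lay within 0.25 of 0, against 61.9% of the 21042 genes measured on both arrays. Ccne2, which encodes cyclin E2, was the only gene at least 1.5-fold higher, where 4.78% of all measured genes passed that size. No replication gene was at least 1.5-fold lower, where 4.85% of all genes were. The SD over the 40 genes was 0.19 and that over all measured genes 0.40. When all measured genes were put into 4 equal-sized classes by signal, 33 of the 40 genes fell in the brightest class. In that class 29 of the 33 (87.9%) lay within 0.25, against 76.0% of all genes there, and the SD over all genes there was 0.25. Across the 74 measured probes the levels on both arrays followed each other with a Pearson's r of 0.997, against 0.990 over all measured probes. This describes probes that share the arrays and were not matched for signal.

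**Figure D1:**
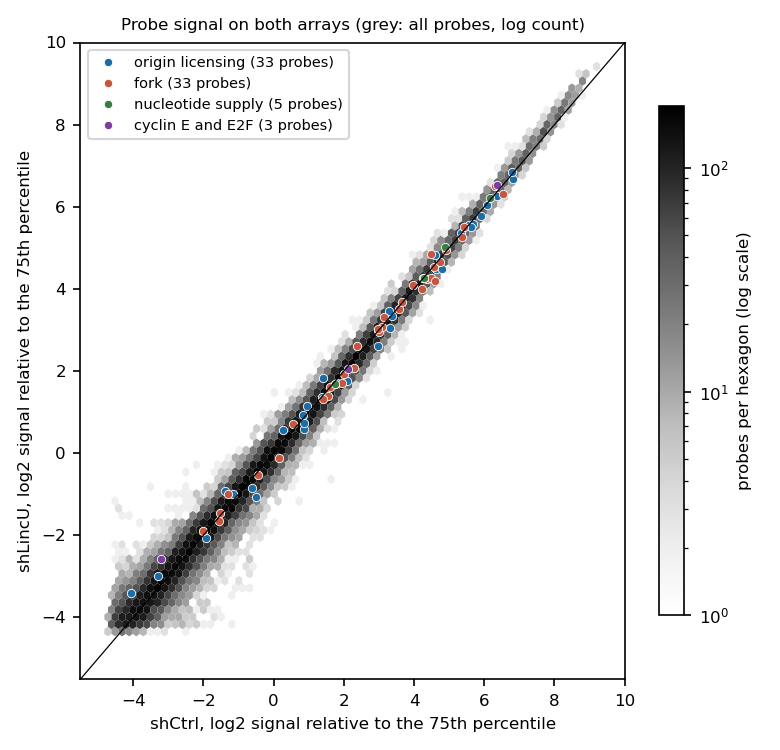
Log2 signal of each measured probe in shCtrl (x axis) and shLincU (y axis), relative to the 75th percentile of the array; coloured points are the 74 probes of the replication genes, grey hexagons count all measured probes. The coloured points follow the line of equal level over the whole range, and the single cyclin E2 probe lies above it near the dim end.

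In direction, 15 of the 40 genes (37.5%) were higher in shLincU and 25 lower, while 53.1% of all measured genes were higher. With the median of each array in place of its 75th percentile, 10 of 40 were higher, against 47.1% of all genes. With each gene's brightest probe 18 of 40 were higher, against 50.7% of all genes, and 16 without spots beside discordant spots, against 53.1%. In 26 of the 40 genes the difference was smaller than the scanner error. That share was not counted over all genes, so it cannot be called particular to these. Scaling to the 8 E1A spike-in probes shifted all genes, by -0.89 at the median. On that scale 0 of 40 genes were higher, 38 were at least 1.5-fold lower, and 1.52% of all genes were higher. The median of all genes was itself -0.87 there, past the 1.5-fold size, so the 38 cannot be called particular to these. Directions are therefore given against the other genes of the same array. In 9 other ways of processing, without the spike-ins, 26 genes kept their sign throughout. The 14 whose sign turned in at least 1 of them had differences no larger than 0.14 in size. For the 17 genes with 1 measured probe, the settings that choose among probes left the value unchanged. Kept signs there say less.

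**Figure D2:**
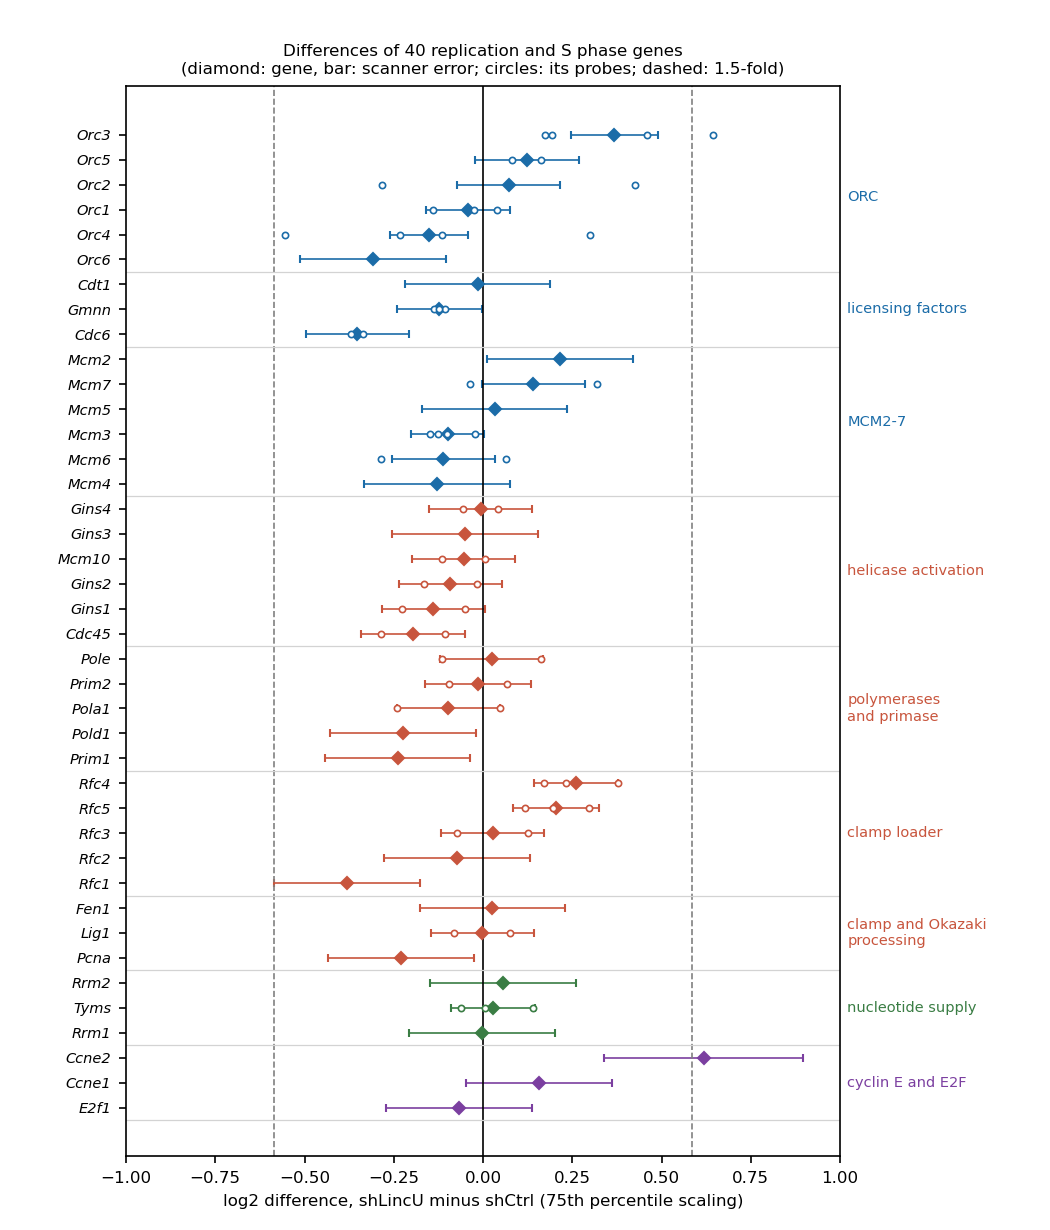
Difference of each replication gene (x axis, log2, shLincU minus shCtrl) by complex; diamonds are genes, bars 1 scanner error to each side, open circles the gene's measured probes where it has several, dashed lines the 1.5-fold size. Of the diamonds only Ccne2 passes a dashed line, and single probes of Orc2 and Orc4 lie on both sides of 0.

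Origin licensing genes had a median difference of -0.042, with 6 of 15 higher, 9 lower and 12 within 0.25. ORC, the complex that marks origins, went both ways, from Orc3 at 0.37 to Orc6 at -0.31. Orc3, a core ORC subunit, had a level of -0.29 in shCtrl and 0.075 in shLincU, a difference with an error of 0.12. All 4 Orc3 probes were higher in shLincU, by 0.17, 0.19, 0.46 and 0.65. Both larger differences belonged to the dimmer spots, at 241 and 37.5 intensity units in shCtrl, and with the brightest probe alone Orc3 was at 0.17. Orc6, the smallest subunit, was at 4.79 in shCtrl and 4.48 in shLincU on 1 probe (difference -0.31, error 0.20). Orc1, the ATPase subunit whose amount is regulated through the cycle, was at -0.042 over 3 probes and Orc5 at 0.12 over 2, and neither stood out beyond its error.

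Probes of 2 ORC genes disagreed with each other. Orc2 had a mean of 0.072, but one probe was lower, at 6281 and 3469 intensity units in shCtrl and shLincU (-0.28). Its other probe was higher, at 1652 and 1491 units (0.43). The lower one lay beside spots that differed at least 2-fold between the arrays, so Orc2 was at 0.43 without such spots. The 4 measured probes of Orc4 gave -0.56, -0.23, -0.12 and 0.30, with a mean of -0.15 and an error of 0.11. The probe at 0.30 was dim (64.4 and 53.2 units), and 1 more Orc4 probe was well above background in shCtrl only. For Orc2 and Orc4 the spread between probes, with SDs of 0.50 and 0.35, exceeded the gene's difference.

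Of the factors that load and restrain the helicase, Cdc6 stood furthest from 0. Cdc6, the ATPase that joins ORC to recruit MCM2-7, was at 2.53 in shCtrl and 2.18 in shLincU (difference -0.35, error 0.14). Both of its probes were lower, at -0.34 and -0.37, and the gene was lower in all 9 other ways of processing, from -0.33 with quantile normalization to -0.39 with median centring. Cdt1, its partner in loading, was at 5.58 and 5.56 (-0.015). Gmnn, which encodes geminin, the inhibitor of Cdt1, was at -0.12 with its 3 probes between -0.14 and -0.11. Cdc6 was thus 1.28-fold lower in shLincU, while Cdt1 differed by less than its scanner error of 0.20.

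The 6 subunits of the MCM2-7 helicase lay within 0.25 of 0 and on both sides of it. Mcm2 was highest, at 4.60 in shCtrl and 4.82 in shLincU (difference 0.22, error 0.20), and Mcm4 lowest, at 5.91 and 5.78 (-0.13). Mcm7 was at 0.14, with probes at -0.037 and 0.32, and Mcm5 at 0.033. Mcm3 was at -0.099, and all 4 of its probes were lower, from -0.15 to -0.022. Mcm6 was at -0.11, but its brighter probe was at 0.064. The SD over the 6 subunits, which form 1 ring, was 0.15, and their scanner errors ran from 0.10 (Mcm3, over 4 probes) to 0.20 for those with a single probe.

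Fork genes had a median of -0.055, with 5 of 19 higher, 14 lower and 17 within 0.25. The factors that activate the helicase were all 6 on the lower side, by small amounts: Cdc45 at -0.20, Gins1 at -0.14, Gins2 at -0.091, Mcm10 at -0.055, Gins3 at -0.050 and Gins4 at -0.0065. Of the whole set 25 of 40 genes were lower, and of all measured genes 9876 of 21042. Cdc45 was at -0.13 in shCtrl and -0.33 in shLincU (error 0.15), and both of its probes were lower, though the lower of them lay beside discordant spots. Gins4, at 3.61 and 3.60, turned to 0.015 with quantile normalization and 0.042 with its brightest probe. The other 5 genes, of which Gins3 has a single probe, were lower in all 9 other ways of processing. Cdc45 alone differed by more than its scanner error. Without the probe beside discordant spots Cdc45 was at -0.11, within the error of its other probe (0.21).

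The polymerases and primase differed by at most 0.24. Prim1, the catalytic subunit of primase, was lowest, at 4.50 in shCtrl and 4.26 in shLincU (difference -0.24, error 0.20), followed by Pold1, the catalytic subunit of the lagging-strand polymerase delta, at 4.23 and 4.01 (-0.22). Both rested on 1 probe each. Prim2, the large primase subunit, was at -0.014 and Pola1, which extends the primers, at -0.097 with probes at -0.24 and 0.046. The lower of these lay beside discordant spots, so Pola1 turned to 0.046 without it. Pole, the leading-strand polymerase epsilon, was at 2.46 and 2.48 (0.024), with probes at -0.11 and 0.16. Another Pole probe was well above background in shCtrl only, and with it Pole came to -0.24.

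The clamp loader (replication factor C) held both the lowest gene of the whole set and one of its 3 highest. Rfc1, its large subunit, was at 4.58 in shCtrl and 4.20 in shLincU on 1 bright probe of 15004 and 7736 units (difference -0.38, error 0.20). Rfc4, a small subunit, was at 3.34 and 3.60 (0.26, error 0.12), and its 3 probes were all higher, by 0.17, 0.23 and 0.38. Rfc5, another small subunit, was at 0.997 and 1.20 (0.20, error 0.12), with its 3 probes between 0.12 and 0.30. The probes at 0.12 and 0.30 were dim, at 155 and 255 units in shCtrl. Its bright probe, at 0.197, was within its error of 0.204. Rfc2 and Rfc3 were at -0.074 and 0.027. So Rfc4 and Rfc5 were each higher on every probe. Rfc1 was lower in all 9 other ways of processing, but those that choose among probes could not change its single probe. Whether the subunits differ from each other beyond culture-to-culture spread was not tested.

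Pcna, the sliding clamp, was at 6.55 in shCtrl and 6.32 in shLincU on 1 probe (difference -0.23, error 0.20). The flap nuclease gene Fen1 was at 4.91 and 4.94 (0.026) and turned negative in several other settings, to -0.031 with normexp background correction. Lig1, the ligase that seals Okazaki fragments, was at -0.0024, with probes at -0.080 and 0.075. Both genes that finish Okazaki fragments thus differed by less than their scanner error.

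Nucleotide supply genes were the tightest group, with a median of 0.029, which turned to -0.010 with normexp correction, and an SD of 0.029. Rrm1 and Rrm2, the large and small subunits of ribonucleotide reductase, which makes deoxynucleotides, were at 4.26 and 4.26 (-0.0021) and at 6.16 and 6.21 (0.056) in shCtrl and shLincU. Tyms, thymidylate synthase, was at 3.63 and 3.66 (0.029), with 3 probes between -0.061 and 0.14. All 3 differences were under their scanner errors of 0.12 to 0.20.

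The genes of cyclin E and E2F had a median of 0.16. Ccne2 was at -3.21 in shCtrl and -2.59 in shLincU, a difference of 0.62 (1.53-fold, error 0.28). It has a single probe on this array, at chr4:11122185-11122244 of build mm9 on the plus strand, in an exon of Ccne2 and starting at base 552 of the transcript. The probe is printed because the one gene past the 1.5-fold size rests on it alone.
Ccne2: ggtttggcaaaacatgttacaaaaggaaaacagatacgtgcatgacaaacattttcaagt

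This spot was dim. It read 67.8 intensity units in shCtrl and 69.9 in shLincU, against lowest signals well above background of 23.8 and 20.7, so its raw signal was nearly equal on both arrays while the 75th percentile was lower in shLincU. In the dimmest of the 4 signal classes, to which Ccne2 belongs, 10.1% of genes were at least 1.5-fold higher. Ccne2 was just under that size with normexp background correction (0.52) and median centring (0.58), and lower in shLincU with E1A scaling (-0.27). Ccne1, which encodes the other E-type cyclin, was bright, at 51489 and 38563 units, with levels of 6.36 and 6.52 (difference 0.16, error 0.20). E2f1, the activator E2F, was at 2.11 and 2.04 (-0.067). The cyclin E genes were thus on the higher side and E2f1 on the lower, with Ccne1 and E2f1 within their scanner error.

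**Figure D3:**
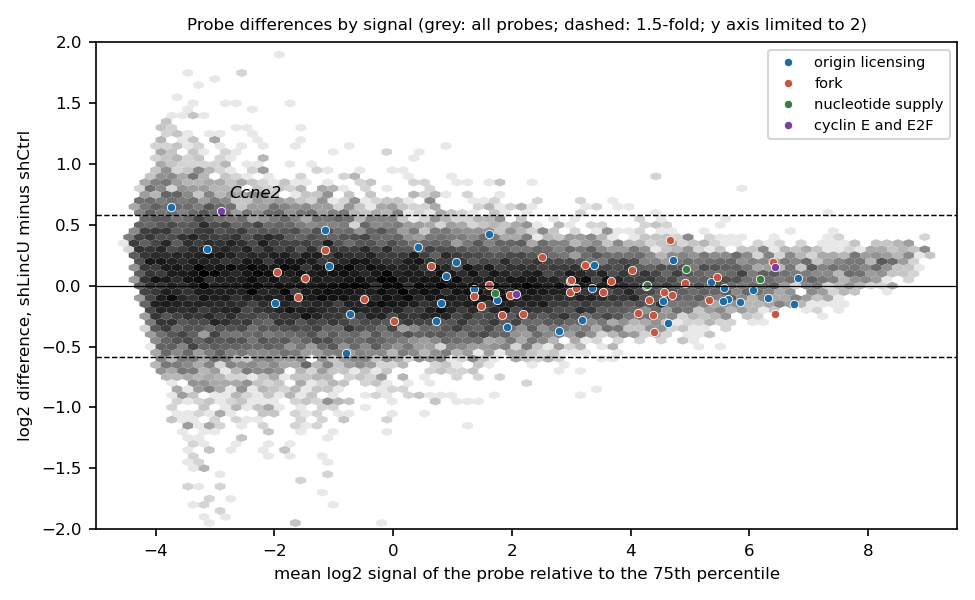
Log2 difference (y axis, shLincU minus shCtrl) of each measured probe against its mean log2 signal (x axis); coloured points are probes of replication genes, grey hexagons all probes, dashed lines 1.5-fold. The grey cloud widens toward dim signals, where Ccne2 and the highest Orc3 probe lie.

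The size of a difference went with the brightness of the spot. The 13 measured probes of the set under 500 intensity units in shCtrl, from 8 genes, differed by -0.56 to 0.65 with an SD of 0.35. The 61 probes at or above that signal differed by -0.38 to 0.43 with an SD of 0.18. Of the 23 genes with several measured probes, 13 had probes on both sides of 0. Between probes of a gene the SD had a median of 0.11, against 0.18 over all genes with several probes, which were not matched for signal. In Ccne2, Orc3, Rfc4 and Cdc6, 4 of the 40 genes, the difference was more than 1.96 times the scanner error, as it was in 21.4% of all measured genes. That error is preset and says nothing of replicates.

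**Figure D4:**
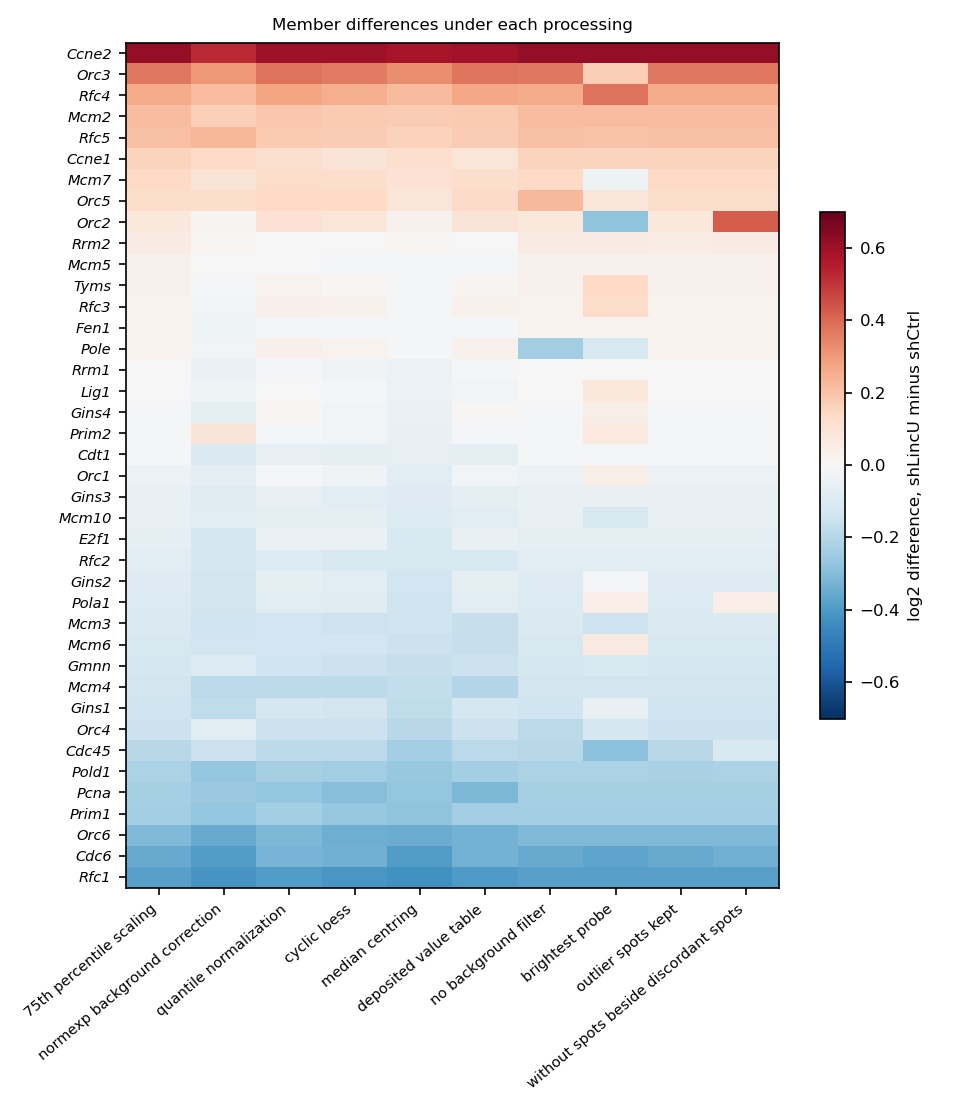
Log2 difference of the 40 replication genes (rows, ordered by difference) under 75th percentile scaling and 9 other ways of processing (columns); red is higher in shLincU, blue lower. Colours of a row change little from column to column at the top and bottom, and Orc2 turns from red to blue with the brightest probe.

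Of 67 other replication genes (further subunits, checkpoint mediators, chromatin assembly factors, nucleotide enzymes and E2F family members), all 67 were measured, 32 were higher and 35 lower, with a median of -0.026. E2f4, a mostly repressive E2F, was the only one at least 1.5-fold higher, at 0.59 (-0.27 in shCtrl, 0.32 in shLincU), and was below that size with normexp background correction (0.49) and median centring (0.55). Rbl2, the pocket protein p130 that binds E2f4, was the only one at least 1.5-fold lower, at -0.66 (-1.92 and -2.58), and was at -0.27 with normexp correction. Both rested on 1 probe. Next were Rrm2b, a further ribonucleotide reductase subunit, at 0.49 on 1 dim probe, Uhrf1, which brings DNA methylation to new strands, at 0.47 with both probes higher, and the repressive E2f7 at 0.43. On the lower side were Rpa3, the small subunit of the single-strand binding protein RPA, at -0.44 and Pold4 of polymerase delta at -0.39. The cell cycle inhibitor gene Cdkn1a was at 0.37 on 1 of its 3 probes. These further genes lay within 0.25 of 0 in 51 of 67 cases (76.1%), between the 85.0% of the 40 genes and the 61.9% of all genes. Of all genes at or above the median signal 71.2% did, and of those in the brightest signal class 76.0%.

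**Figure D5:**
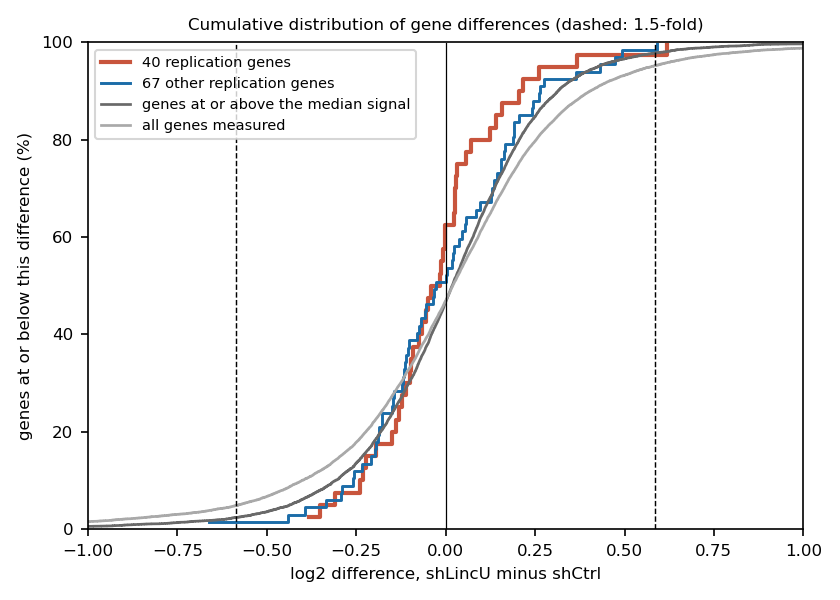
Share of genes (y axis, percent) at or below each log2 difference (x axis, shLincU minus shCtrl) for the 40 replication genes, 67 other replication genes, genes at or above the median signal, and all genes measured. The curve of the 40 genes is steeper around 0 than that of all genes. Within 0.25 of 0 lay 85.0% of the 40, 71.2% of genes at or above the median signal and 61.9% of all genes.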

How the data were processed

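The deposited scanner files hold intensity values from Feature Extraction 10.7.1.1 (Agilent), background-corrected and detrended within each array per the file headers, and other columns (deposited flags of 0 or 1 per spot). The deposited value table holds log2 values with a median of 5.65 in both columns; how it was normalized was not given in the sources used here, and its slope on the scanner log2 values was 0.98 and 1.01, so its direction is that of the signal. Control spots and outlier spots (98 and 138) were left out, spots of a probe averaged, and log2 intensity was taken relative to the 75th percentile over probes. Genes are the array's own gene names; matching by RefSeq accession or synonym (GRCm38.p6) added 0 probes.

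With 1 array per group no test was made. Counts use 1.5-fold. The 40 genes were chosen by name and not by their values. Earlier results of these data were known when the analysis was planned and the other lists were drawn up. Each of the 40 genes was named; per-array levels were given for the 6 highest and 6 lowest, the extremes of each complex, and the nucleotide supply and cyclin E/E2F genes, and probes singly where they differed by over 0.5. Of the other replication genes, those past 1.5-fold were to be named; the rest named were chosen after their values were seen. Discordant neighbourhoods were those with 2 or more of 14 neighbouring spots at least 2-fold apart between the arrays, in the same direction. Normexp used an offset of 50. The calculation was tested on simulated data. Tools were R 4.3.3 with limma 3.58.1, and Python 3.11.15 with numpy 2.4.6, pandas 2.3.3 and matplotlib 3.10.9.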

Additional observations from a re-analysis of the deposited data

How the results depend on the processing

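With E1A scaling the medians were -0.92 for all 40 genes, -0.93 for origin licensing, -0.95 for fork, -0.86 for nucleotide supply and -0.73 for cyclin E and E2F genes, with 0 genes higher by any amount or by 1.5-fold, and 38 lower by at least 1.5-fold. Ccne2 turned to -0.27. This scaling moves all genes alike, and the median of all genes was -0.87 with it, past the 1.5-fold size. In the other settings, including the deposited value table, quantile normalization, cyclic loess and either part of the rows, these medians moved by less than 0.11, the typical SD between a gene's probes, except that the upper rows held no cyclin E or E2F probe to give one. The count at least 1.5-fold higher was 0 with normexp, with median centring and in the upper rows, which hold no Ccne2 spot. It was 0 at 2-fold, a size not counted over all genes. At a log2 size of 0.32 it was 2, and 2 genes passed in the lower direction. Of all 21042 measured genes 3056 passed that size in the higher direction and 2806 in the lower. In the lower rows 9 of 27 measured genes were higher, against 53.8% of all genes there, and in the upper rows 14 of 29, against 53.3%. By single gene, the brightest probe moved 8 of 40 differences by more than 0.11, and leaving out spots beside discordant spots moved 2. No paired analysis was possible because there was 1 array in each group. Leaving out an array would leave no comparison. Dim spots limit the precision of Ccne2, Prim2 and some probes of Orc3, Orc4, Orc5, Rfc5, Gmnn and Cdc45.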
